A study of Mus musculus with 10 samples.

Results

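SET is an acidic protein that binds histones, acts as a histone chaperone and inhibits the protein phosphatase PP2A, and its gene gives a longer and a shorter isoform, SETα and SETβ (SETa and SETb in the labels), that differ at the amino terminus. Chromatin immunoprecipitation of a tagged protein shows where along the genome that protein, or a complex that holds it, can be crosslinked. The comparison here asked where tagged SETα was found when it was the only source of SET in the cell and where it was found when the cell also made its own SET. It used 4 of the 10 samples of the series, and 4 libraries of the matching lines with HA-tagged SETβ, 2 with and 2 without endogenous SET, were read beside them.

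The cells were mouse embryonic stem cells of the KH2 background, a line built to take 1 doxycycline-inducible transgene at a chosen site. The line labelled KH2 SET-KO pBS31-HA-SETa lacked endogenous SET and carried HA-tagged SETα, and is called addback here. The line labelled KH2 pBS31-HA-SETa carried the same transgene with endogenous SET left in place, and is called overexpression here. Both were grown on feeder fibroblasts that were depleted before harvest, both received doxycycline at 1 µg/ml for 24 h, and both were fixed with DSG, which links protein to protein, and then formaldehyde before an HA antibody was applied. Each group is 1 cell line with 2 replicates, so the line and the presence of endogenous SET cannot be told apart. The labels do not say whether replicates came from separate cultures, so the spread between them may be technical. The permutation p-values compare arrangements of these libraries only and do not measure that spread. The 2 SET KO samples without doxycycline, which would give the background of the antibody, were not analysed here. Peak lists hold no expression values, so neither the knockout nor the cell type was checked, and read depths are unknown here.

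The addback lists held 22176 and 15701 peaks and the overexpression lists 4807 and 7675. The overexpression libraries stood apart most in the segment chr6:118000001-136000000. It held 69.4% and 62.2% of their peaks, against 2.52% and 3.76% in the addback libraries. Peak density there was 185.4 and 265.4 per Mb in overexpression, 309 and 225 times the density elsewhere. In addback it was 31.0 and 32.8 per Mb, 3.52 and 5.32 times the density elsewhere. The same ratio lay between 2.76 and 6.21 in the 4 SETβ libraries, so none of those libraries reached the excess of the SETα overexpression line, the SETβ line with endogenous SET included. The median fold enrichment of overexpression peaks was 2.74 and 2.85 in the segment and 2.78 and 2.78 elsewhere, so typical peaks were alike in height, while the highest was 5.30 and 6.03 in the segment and 15.2 and 15.3 elsewhere. The cause of the excess was not tested. The main results below are given with and without the segment.

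**Figure D1:**
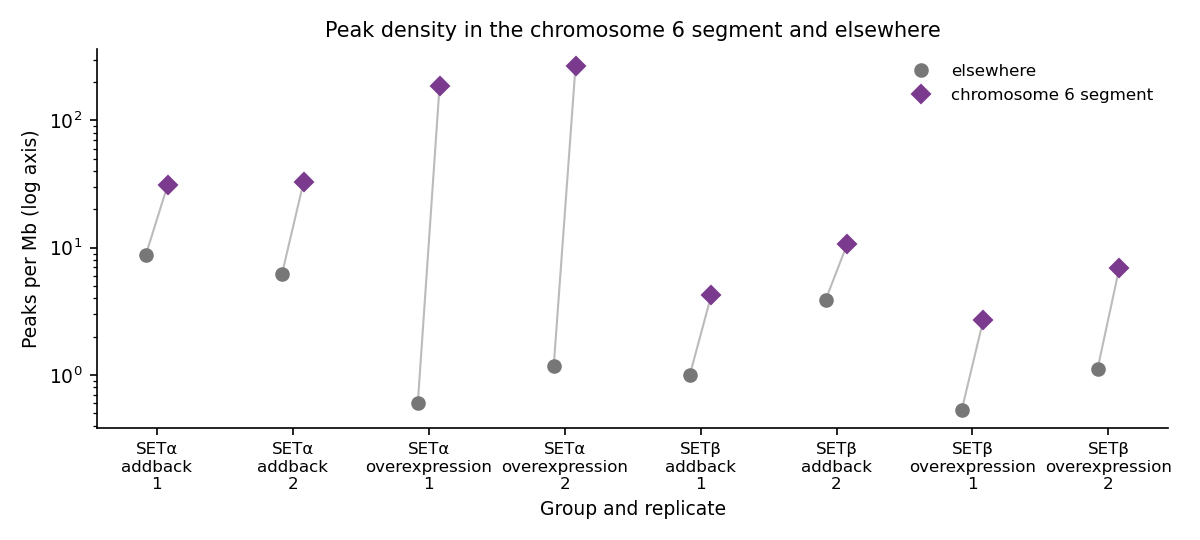
Peaks per Mb on a log axis in the chromosome 6 segment (diamonds) and on the other sequence analysed (circles), 1 pair of points per library. The gap is 309-fold and 225-fold in the SETα overexpression libraries and at most 6.21-fold in the other libraries.

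Without the segment the overexpression lists fell to 1470 and 2898 peaks while the addback lists kept 21618 and 15111. On the log2 scale addback exceeded overexpression in number of peaks by 1.62 with the segment (spread between replicates 0.42, n = 2 per group) and by 3.13 without it (exact two-sided permutation test, p = 0.333 in both cases, the smallest that 2 against 2 libraries can give). At a −log10 q of at least 5, 1064 and 1020 addback peaks remained against 39 and 98 in overexpression, of which 5 and 32 lay in the segment. Because lists differed so much in length, shares were taken over the strongest 1470 peaks of each library by −log10 p, the length of the shortest list without the segment.

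Among the strongest 1470 peaks, tagged SETα lay mainly at gene ends without endogenous SET and mainly away from gene ends with it. Of the strongest summits, 67.7% and 69.7% were within 1 kb of the start or end of a gene in addback, against 15.2% and 15.2% in overexpression. The groups were far apart, with a difference of 53.5 percentage points and a spread between replicates of 1.02 (exact two-sided permutation test, p = 0.333, the smallest possible). Without the segment the shares were 66.9% and 69.1% in addback and 7.07% and 8.37% in overexpression, a difference of 60.3 points. Outside the segment 1470 peaks were the whole list of overexpression replicate 1, so equal numbers do not mean equal strength. A −log10 q of at least 5 was reached there by 34 and 66 overexpression peaks, against 1016 and 954 addback peaks. Over all peaks without the segment the shares were 39.3% and 47.6% in addback and 7.07% and 8.87% in overexpression, so most addback summits of the full lists were not at a gene end. Most addback summits at gene ends were at starts: 44.6% and 58.3% of summits lay within 1 kb of a listed start of a protein-coding gene, against 5.71% and 6.26% in overexpression, and against 0.816% and 2.86% once the segment was left out.

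Summits outside genes made up 12.4% ± 1.25 (SD, n = 2) of the strongest addback peaks and 43.6% ± 0.43 (SD, n = 2) of the strongest overexpression peaks. Leaving out the segment moved these shares to 12.9% ± 1.49 and 64.4% ± 0.67 (SD, n = 2), so peaks outside genes were the larger part of the overexpression list everywhere else. Gene bodies, meaning summits inside a gene and over 1 kb from its ends, held 18.8% and 41.2% on average with the segment and 19.1% and 27.9% without it. Over all peaks the difference was -10.4 points with the segment, and it reversed to 4.43 points when the segment was also left out. Places where the ends of at least 2 protein-coding genes lie together, such as divergent promoters, held 12.2% ± 1.92 of addback summits and 1.22% ± 0.29 of overexpression summits (SD, n = 2). Without the segment these shares were 11.8% and 0.272%. The X chromosome held 3.84% ± 0.53 of the strongest addback summits and 16.4% ± 1.59 of the strongest overexpression summits outside the segment (SD, n = 2). With the segment these X shares were 3.78% ± 0.63 and 7.62% ± 0.10 (SD, n = 2).

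**Figure D2:**
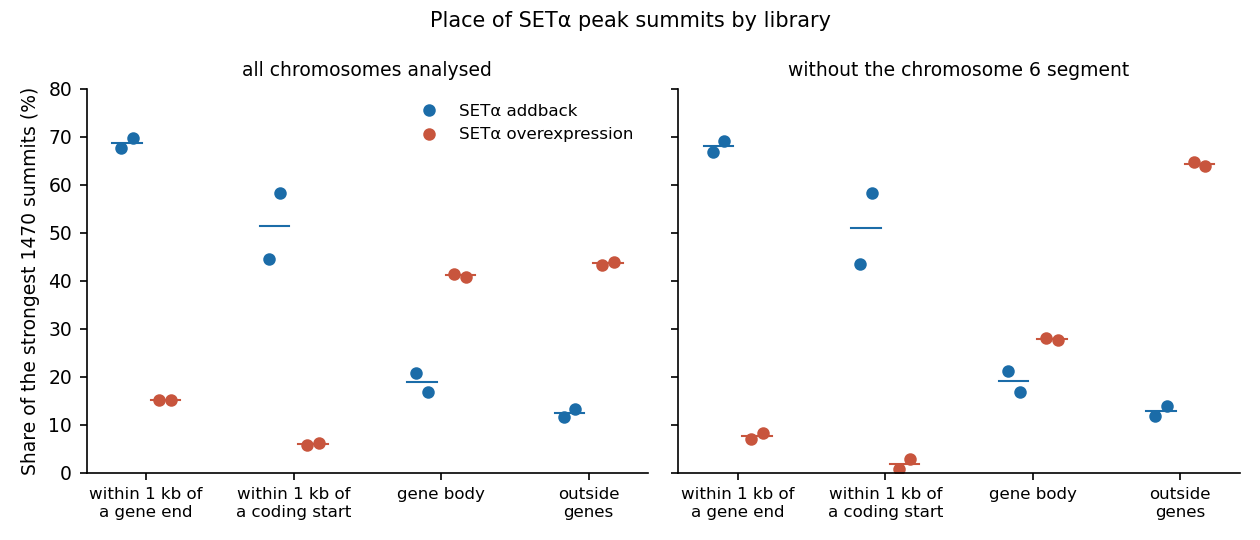
Share of the strongest 1470 summits (percent) by place, 1 point per library with the group mean as a line, over all chromosomes analysed (left) and without the chromosome 6 segment (right). Addback libraries reached 67.7% and 69.7% at gene ends, and overexpression libraries 15.2%, falling to 7.07% and 8.37% without the segment.

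The strongest 1470 peaks overlapped more between replicates than between backgrounds. The overlap was 44.6% between the addback replicates and 38.5% between the overexpression replicates, and between 4.08% and 6.22% for the 4 pairs across backgrounds. Without the segment these overlaps were 42.8%, 33.8% and 1.67% to 3.13%. Of the strongest 100 addback peaks outside the segment, all were also listed in the other addback replicate, and 0 and 1 were listed in either overexpression library. Of the strongest 100 overexpression peaks outside the segment, 90 and 89 were listed in the other replicate, and 20 and 29 in either addback library. With the segment the numbers listed in the other background were 3 and 5 of 100 for addback and 26 and 47 of 100 for overexpression. The strongest peaks of each background were mostly missing from the other, by a narrow margin for overexpression replicate 2 with the segment.

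All peaks of the 4 libraries merged into 40650 regions, of which 34584 lay outside the segment. A region was called addback only when both addback lists and neither overexpression list held a peak in it, overexpression only in the reverse case, and found in both when all 4 lists held one. Addback only applied to 4508 regions (11.1%), overexpression only to 1790 (4.40%) and both to 219 (0.539%). Outside the segment the counts were 4488 (13.0%), 485 (1.40%) and 55 (0.159%). The segment thus held 1305 of the overexpression only regions and 164 of the regions found in both, and 20 of the addback only regions. Most of the other regions came from 1 library: outside the segment, 26489 were listed in a single addback library and 2500 in a single overexpression library.

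The classes differed in place. Outside the segment, 65.5% of addback only regions (Wilson 95% interval 64.1% to 66.9%) lay within 1 kb of a gene end, against 6.80% (4.89% to 9.40%) of overexpression only regions and 14.5% (7.56% to 26.2%) of regions found in both. Intervals cover counting error only. Regions outside genes made up 12.5% of the addback only class, 68.2% of the overexpression only class and 58.2% of those found in both. With the segment these shares were 12.5%, 43.9% and 28.8%, and the shares at gene ends 65.4%, 10.7% and 39.7%. Outside the segment, a listed coding start lay within 1 kb of 54.6% of addback only regions and of 1.24% of overexpression only regions. It did for 0 of the 55 regions found in both. With the segment these shares were 54.4% and 2.35%, and 26.0% (57 of 219) of the regions found in both. Outside the segment the X chromosome held 3.25%, 23.7% and 23.6% of the 3 classes, and the Y chromosome 0.512%, 1.44% and 18.2%. With the segment the X shares were 3.24%, 6.42% and 5.94%, and the Y shares 0.510%, 0.391% and 4.57%. Inside the segment, 12.2% of overexpression only regions and 48.2% of the regions found in both were at gene ends, more than outside the segment. There 34.8% and 18.9% lay outside genes and the remainder in gene bodies, which held most of the overexpression only regions of the segment.

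The SETβ libraries, which played no part in defining these classes, listed them along the same divide outside the segment. The SETβ addback libraries held 24.7% and 34.7% of the SETα addback only regions, and the SETβ overexpression libraries 0.579% and 2.38%. For the overexpression only regions the order was reversed, since SETβ addback listed 1.44% and 3.09% of them and SETβ overexpression 48.0% and 54.4%. Regions found in both were listed in 29.1% and 41.8% of cases by SETβ addback and in 76.4% and 89.1% by SETβ overexpression. For the 164 such regions in the segment the order was reversed, with 29.3% and 39.0% by SETβ addback and 9.15% and 22.6% by SETβ overexpression, and with the segment included the groups overlapped (29.2% and 39.7% against 26.0% and 39.3%). In the segment the overexpression only regions were nearly absent from every SETβ list: SETβ overexpression held 1.15% and 1.53% of them and SETβ addback 0.0766% and 1.38%. With 2 libraries in each SETβ group no p under 0.333 was possible, and outside the segment the groups did not overlap in any of the 3 classes.

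**Figure D3:**
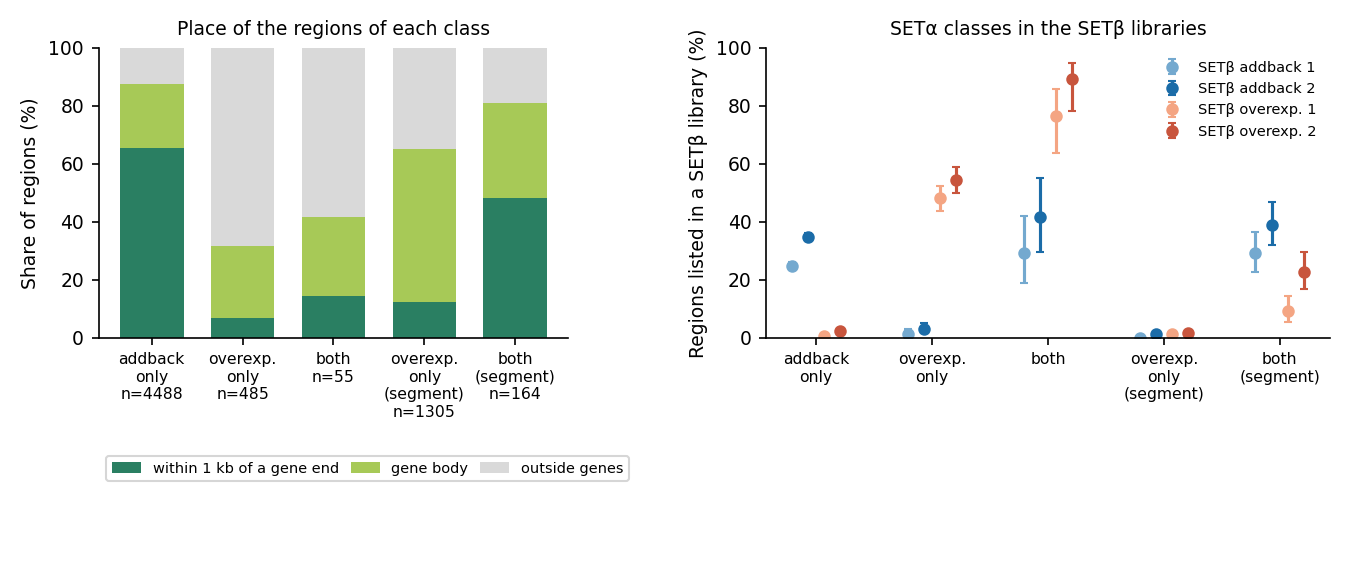
Left, place of the regions of each class (percent of regions, n under each bar), outside and inside the chromosome 6 segment. Right, percent of the same regions listed in each SETβ library with Wilson 95% intervals, where the overexpression only regions reach 48.0% and 54.4% in SETβ overexpression outside the segment and 1.15% and 1.53% inside it.

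At the level of genes, a protein-coding gene counted as having a peak when one overlapped the window of 1 kb to each side of its start, its end or a start listed for it in the promoter table. Of 19232 protein-coding genes, 7149 and 6644 had such a peak in the addback libraries and 191 and 377 in the overexpression libraries. Outside the segment the numbers were 7032 and 6530 against 20 and 170. Addback only held 4507 genes (23.4%), overexpression only 44 (0.229%) and both 100 (0.520%). Outside the segment they held 4505 of 18974 genes (23.7%), 2 (0.0105%) and 6 (0.0316%). With the segment set aside, few coding genes had tagged SETα in both overexpression replicates. Peaks of different libraries at 1 gene need not overlap, so a gene can be found in both where no region is.

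The strongest gene-end peaks found only without endogenous SET had very high significance. Dpy19l4, which encodes a membrane protein related to C-mannosyltransferases, had a −log10 p of 121.6 and 102 in the addback replicates. The peak at Nsfl1c, which encodes the p47 cofactor of the p97 ATPase, reached 155.6 and 101.4, and that at Rab33b, a small GTPase of the Golgi, 108.3 and 115.4. Rad54l2, a helicase-like ATPase, had values of 114.4 and 101. None of these 4 genes had a peak in either overexpression library. Kctd5, an adaptor of cullin ligases, and Pdpk1, the kinase that activates AKT, share 1 peak on chromosome 17 with values of 103.8 and 97.5. Its summit lies 81 bp from the start of Kctd5. Pdpk1 is counted only because 1 of its ends is near, and its listed start is far from the peak.

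Ddost, a subunit of the oligosaccharyltransferase, had a −log10 p of 112.3 and 88.4. A single peak is shared by Mrpl44, a protein of the mitochondrial ribosome, and its neighbour Wdfy1, with values of 93.4 and 95.9. Another is shared by Ighmbp2, a helicase, and Mrpl21, also a mitochondrial ribosomal protein, with values of 100.4 and 83.8. Dcaf10, a substrate receptor of cullin ligases, closed the list of the 12 leading genes with 100.8 and 80.3. Neighbouring genes that share a peak are counted as separate genes in every count above and below.

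The same peaks were strong in the SETβ addback libraries, with a −log10 p of 103.1 and 99.9 at Dpy19l4, 157.6 and 108.4 at Nsfl1c and 164.5 and 105.9 at Rab33b. Neither SETβ overexpression library listed any of these 3 regions.

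Promoter sequences show what these sites look like. The RefSeq promoter table of GRCm38.p6 held a promoter for 3742 of the 4505 addback only genes outside the segment. The sequences printed belong to the 4 such genes with the lowest mean rank that the table holds with a summit within 1 kb of the listed start, and to Bms1 from the segment, which was chosen after its values were seen because it is the segment gene with the strongest addback peak among those named. Each runs from 250 bases before the start to 30 after it, on the strand of the gene. Nsfl1c is at chr2:151493932-151494211 (+), Rab33b at chr3:51483716-51483995 (+), Kctd5 at chr17:24073456-24073735 (−), Ddost at chr4:138304488-138304767 (+) and Bms1 at chr6:118419388-118419667 (−). Capitals mark matches on either strand to the ETS word CCGGAAG, the SP/KLF word GGGCGG and the CCAAT box.
Nsfl1c: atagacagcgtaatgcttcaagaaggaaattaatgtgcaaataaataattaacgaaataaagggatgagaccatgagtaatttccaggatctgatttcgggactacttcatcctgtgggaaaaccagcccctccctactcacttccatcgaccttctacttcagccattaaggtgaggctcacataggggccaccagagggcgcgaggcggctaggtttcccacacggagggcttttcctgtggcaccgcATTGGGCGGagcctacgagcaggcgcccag
Rab33b: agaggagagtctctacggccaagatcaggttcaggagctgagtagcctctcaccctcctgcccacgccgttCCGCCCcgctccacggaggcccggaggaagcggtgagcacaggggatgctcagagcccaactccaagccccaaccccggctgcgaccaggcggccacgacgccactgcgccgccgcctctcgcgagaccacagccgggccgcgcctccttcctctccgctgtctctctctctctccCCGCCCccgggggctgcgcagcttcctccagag
Kctd5: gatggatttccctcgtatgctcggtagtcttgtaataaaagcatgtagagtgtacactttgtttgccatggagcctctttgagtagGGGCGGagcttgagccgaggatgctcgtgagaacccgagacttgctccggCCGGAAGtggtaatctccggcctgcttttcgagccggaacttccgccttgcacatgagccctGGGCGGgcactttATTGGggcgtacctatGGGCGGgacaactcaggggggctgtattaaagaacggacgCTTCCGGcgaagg
Ddost: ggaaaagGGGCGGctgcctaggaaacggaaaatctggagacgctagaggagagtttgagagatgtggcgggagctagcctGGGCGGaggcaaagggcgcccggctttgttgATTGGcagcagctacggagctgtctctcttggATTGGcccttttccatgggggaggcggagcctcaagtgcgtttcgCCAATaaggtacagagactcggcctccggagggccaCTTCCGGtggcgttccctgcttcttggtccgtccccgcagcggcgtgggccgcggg
Bms1: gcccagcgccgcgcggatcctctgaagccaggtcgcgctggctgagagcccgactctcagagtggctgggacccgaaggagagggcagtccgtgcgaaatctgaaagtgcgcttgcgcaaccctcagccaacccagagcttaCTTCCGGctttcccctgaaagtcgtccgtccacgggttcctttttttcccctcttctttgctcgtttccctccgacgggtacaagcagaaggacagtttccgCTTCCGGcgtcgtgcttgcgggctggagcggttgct

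These promoters are rich in CpG, the dinucleotide that is depleted elsewhere in vertebrate genomes. The printed stretches hold 12 CpGs for Nsfl1c, 25 for Rab33b, 19 for Kctd5, 21 for Ddost and 25 for Bms1. The summit of the strongest peak lay 17, 110, 81, 9 and 37 bp from the start, in the same order. The ETS word, which is recognised by the ETS family of transcription factors and is common in promoters of housekeeping genes, occurs 2 times in Kctd5, 1 time in Ddost and 2 times in Bms1, and in neither Nsfl1c nor Rab33b.

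Over all addback only genes outside the segment, the median ratio of observed to expected CpG in the 300 bases around the start was 0.813 (quartiles 0.668 and 0.940), against 0.577 (0.218 and 0.831) for the 15289 protein-coding genes with a promoter. Overexpression only and both held too few genes outside the segment for such a summary. Per library, the median ratio at the starts nearest the strongest 1470 summits was 0.827 and 0.837 in addback and 0.678 and 0.717 in overexpression, a difference of 0.135 against a spread of 0.02 (exact two-sided permutation test, p = 0.333, the smallest possible). Without the segment the overexpression values rested on 11 and 40 promoters and were 0.340 and 0.818, and over all peaks without the segment the groups overlapped (exact two-sided permutation test, p = 1).

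The ETS word was most frequent in the strongest addback promoters. Each word was searched on both strands of the 300 bases. CCGGAAG was found in 12.0% of all coding promoters, in 22.7% of addback only promoters and in 45.7% of the 466 promoters of genes that had an addback peak of −log10 q of at least 5 in both replicates and no such peak in overexpression (the strict group). When the addback only genes were cut into 4 equal parts from the strongest to the weakest mean rank, the shares were 35.6%, 19%, 20.8% and 15.3%. GGGCGG, the SP/KLF word, was found in 46.4% of all promoters, 68.8% of addback only and 54.9% of the strict group, and its share was lowest, at 64.3%, in the strongest of the 4 parts. CCAAT was found in 38.7%, 36.8% and 27.5% of the same groups. The median GC content of these groups was 56.3%, 63.3% and 59.3%, and motif shares were not adjusted for base composition.

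The other words were rarer. The NRF1 word GCGCATGC was in 3.66% of all, 6.01% of addback only and 4.72% of strict promoters, and the YY1 word AAGATGG in 6.21%, 6.55% and 6.87%. TATAAA was found in 12.9% of all promoters, 5.88% of addback only and 5.36% of strict ones. The CRE word TGACGTCA was in 2.22%, 2.97% and 1.5%, the E-box CACGTG in 7.71%, 9.70% and 8.37%, and the ZNF143 word ACTACAATT in 0.491%, 0.748% and 0.644%. A match describes these letters only and is no evidence of binding by the factor it is named for.

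The same shares were taken per library at the starts nearest the strongest 500 peaks outside the segment. CCGGAAG was in 51.0% of 306 promoters and 50.4% of 339 in the SETα addback libraries, and in 49.6% of 367 and 51.8% of 353 in the SETβ addback libraries. The SETα overexpression libraries reached only 3 and 5 promoters, none with the word. With the segment they reached 25 and 34 promoters, of which 4 and 4 held it. The SETβ overexpression libraries reached 12 and 14 promoters outside the segment, of which 0 and 2 held the word. Among strict promoters whose summit lay within 1 kb of the start, 212 of 432 held the word, and the nearest match was a median of 51 bp from the summit (quartiles 29 and 90.2 bp). The SP/KLF word was a median of 83 bp from the summit in 231 of the same promoters, and CCAAT 114.5 bp in 120.

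**Figure D4:**
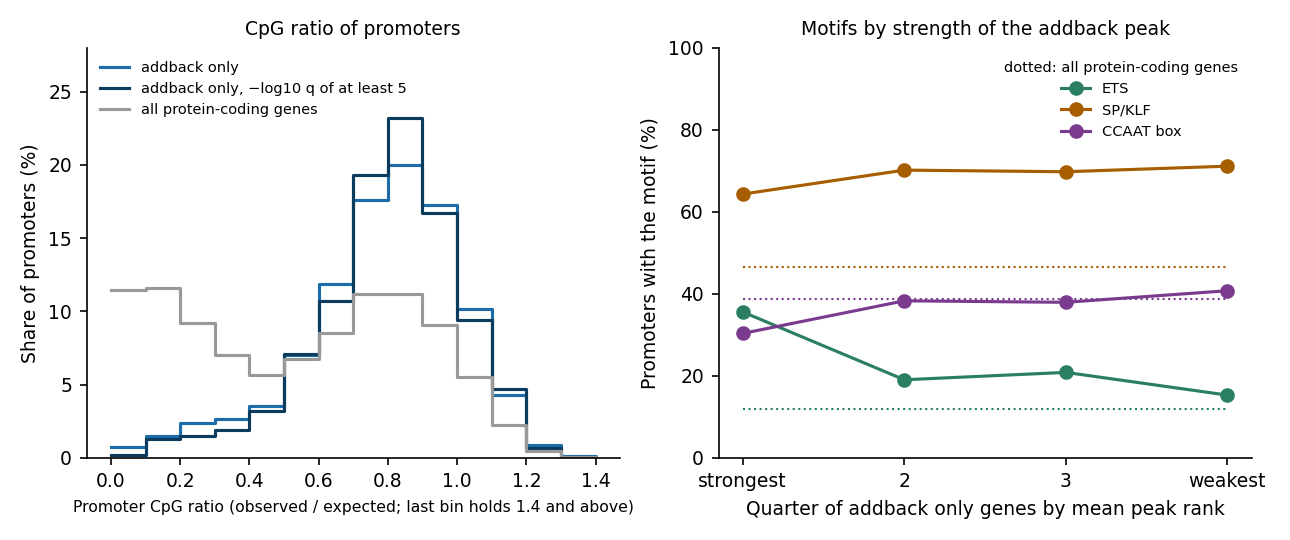
Left, share of promoters (percent) by CpG ratio for addback only genes, the strict addback group and all protein-coding genes. Right, share of addback only promoters with the ETS, SP/KLF and CCAAT words in 4 equal parts by mean peak rank (points) and in all coding promoters (dotted lines), where the ETS word falls from 35.6% in the strongest part to 15.3% in the weakest.

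Gene groups were then read against the 23.4% of all coding genes that were addback only. No group was tested, so these shares are descriptions. Histone chaperones and SET partners had the highest share, with 21 of 28 genes addback only (75%). Hira, which deposits histone H3.3, led with a −log10 p of 39.4 and 34.8 in the addback replicates. Ssrp1, a subunit of the FACT complex, had 12.6 and 21.5, Ptma, an acidic histone-binding protein, 9.42 and 11.9, and Anp32b, which is found in a complex with SET, 11.7 and 8.20. The Set gene itself had a peak in both addback libraries, of 6.15 and 5.70, and in no overexpression library.

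The other chaperone genes called addback only were Daxx, Nasp, Ncl, Npm3, Nap1l1, Hjurp, Atrx, Supt16, Ran, Asf1a, Rbbp7, Anp32e, Nap1l4, Spty2d1, Anp32a and Tspyl1. Their −log10 p lay between 2.95 at Tspyl1 and 10.0 at Nasp, far below the leading promoters. Chaf1b, Cabin1, Ubn1, Chaf1a and Rbbp4 had a peak in a single addback library. Apex1 and Trex1, nucleases of the SET complex, had none in any of the 4 libraries. Of the subunits and regulators of PP2A, the phosphatase that SET inhibits, 9 of 18 were addback only, led by Ppp2r5a at 8.63 and 12.2 and Ptpa at 6.57 and 10.0, with Ppp2r5e and Ppp2r2a next.

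Genes of protein synthesis and RNA processing were often addback only, and some had strong peaks. Cytoplasmic ribosomal proteins counted 43 of 73 (58.9%), with Rpl37 at 57.1 and 56.5, Rps18 at 49.3 and 56.5, Rps7 at 45.5 and 41.3, and Rpl28 at 13.5 and 17 in −log10 p. Translation factors and tRNA synthetases counted 48 of 82 (58.5%), led by Eif1ad at 73.3 and 65.2 and Eif4a2 at 50.6 and 60.9, and including Eef1b2 and Tars2. Splicing factors counted 43 of 71 (60.6%), led by Snrpd3 at 80.4 and 73.3 and Sf3a3 at 64.0 and 66.0, and including Snrnp27 and Snrnp200. RNA polymerase subunits and general factors counted 37 of 90 (41.1%), led by Med23 at 66.4 and 74.2, with Polr3b, Gtf2h4 and Gtf2h2 following.

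Mitochondrial ribosomal proteins counted 31 of 65 (47.7%), and 15 of the 65 passed the strict threshold, against 3.03% of all coding genes. Mrpl30, at 58.4 and 60.9, and Mrpl1, at 66.4 and 56.5, followed Mrpl44 and Mrpl21 there. Mrpl51 lies in the segment and was found in all 4 libraries. Oxidative phosphorylation genes counted 26 of 69 (37.7%), with Ndufs7 at 66.4 and 83.4 and Ndufs1 at 58.4 and 49.5, then Ndufb3 and Ndufa12, and Ndufa9 of the segment in both. Proteasome genes stood nearest the background at 10 of 37 (27.0%), with Psmg3, Psmc1, Psmc2 and Psmd2 in the lead. DNA replication genes counted 14 of 38 (36.8%), with Pold3 at 6.88 and 9.09 followed by Pole, Mcm9 and Rfc5.

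Chromatin modifiers counted 31 of 54 (57.4%), led by Rbbp5, a subunit of H3K4 methyltransferases, at 28.7 and 32.2, with Dot1l, Ep300 and Kdm5b after it. Kdm5a and Chd4 lie in the segment and were found in both. Histone genes counted 39 of 72 (54.2%), with H3c6 at 9.22 and 16.0, H4f16 at 9.16 and 7.62 and H1f0 at 17.3 and 6.90, and H2ac24 next. Their reads can be split among near-identical copies, so these calls are uncertain. Genes of tRNA, which RNA polymerase III transcribes, are not protein-coding and were counted apart: 134 and 159 of 349 (38.4% and 45.6%) had a gene-end peak in addback and 15 and 17 (4.30% and 4.87%) in overexpression, against 37.2%, 34.5%, 0.993% and 1.96% of coding genes. Of the tRNA genes 84 (24.1%) were addback only, near the 23.4% of coding genes, 0 were overexpression only and 15 (4.30%) were in both.

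Genes of the pluripotent state had modest peaks. Addback only held 14 of 33 pluripotency genes (42.4%) and both held 3 (9.09%), against 23.4% and 0.520% of all coding genes. None was addback only at the strict threshold, which 3.03% of all coding genes were, so 0 of 33 says little about these genes. Sall4, a zinc-finger factor of the core network, had a −log10 p of 6.29 and 9.09, Lin28a 6.15 and 5.70, Sox2 5.95 and 5.70, and Rif1 5.70 and 5.70. The 3 genes found in both, Nanog, Dppa3 and Gdf3, are neighbours in the segment. Nanog, a homeobox factor of naive pluripotency, had 5.65 and 7.15 in addback and 5.38 and 10.6 in overexpression. Without the segment no pluripotency gene was found in both.

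Developmental transcription factors, many of which are held silent in embryonic stem cells by Polycomb, counted 45 of 115 addback only (39.1%). Lhx2 had 6.15 and 8.20, Dlx2 7.12 and 6.50, Hoxd11 6.15 and 6.50, and Six3 6.88 and 5.70, and none of the 115 passed the strict threshold, against 3.03% of all coding genes. Targets of p53 counted 14 of 29 (48.3%), with Sesn1, Polk, Sesn2 and Bax in the lead and Tigar of the segment in both. Wnt pathway genes counted 23 of 57 (40.4%), led by Pygo2, a coactivator with β-catenin, at 12.6 and 10.0, followed by Apc2, Fzd3 and Ctnnb1, with Lrp6 and Wnt5b of the segment in both. Olfactory and vomeronasal receptors, whose promoters are mostly poor in CpG, gave 1 addback only gene of 1371, Vmn2r29, at 11.1 and 9.74. Vmn2r25 and Vmn2r26, both in the segment, were overexpression only.

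**Figure D5:**
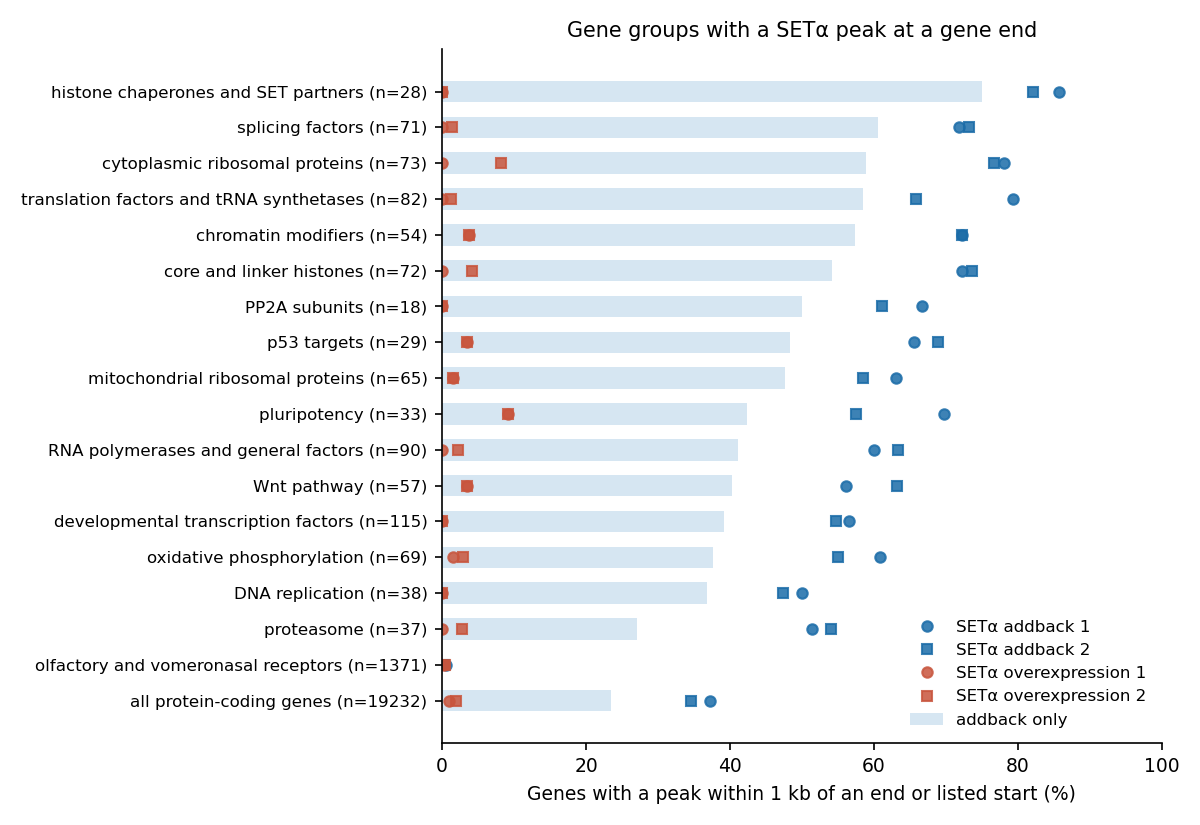
Percent of the genes of each group with a peak at a gene end in each SETα library (circles and squares) and percent called addback only (bars). All groups but the receptors lie above the 23.4% of all coding genes, and the overexpression libraries stay at or below 9.09% in every group.

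Outside the segment, overexpression only regions lay mostly outside genes, with the strongest in clusters. The antibody background was not analysed here, so whether these peaks reflect tagged SETα was not tested. The 3 leading regions there lie together at chr10:3109385-3117252 near the pseudogenes Gm3318 and Gm30674. Their −log10 p was 59.8 and 55.9, 54.7 and 61.1, and 55.9 and 49.7 in the overexpression replicates, and no addback library listed them. The next 5 regions form part of a group of 14 at chrX:126688776-126777516, with no annotated gene inside it and Gm7746 and 4932411N23Rik as the nearest genes. The region at chrX:126763525-126773978 was 10454 bp wide and had values of 32.1 and 40.1. The SETβ overexpression libraries listed all 8 regions, with 18.6 and 16.7 at the last one, and the SETβ addback libraries none.

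When overexpression only regions within 50 kb of each other were joined, 2 more X chromosome clusters of 20 regions each appeared, at chrX:123045590-123075390 and chrX:94876838-94917926, with no annotated gene in either. A cluster of 10 regions at chr7:59743563-59782083 covered the small nucleolar RNA genes of Snhg14, the imprinted host transcript of the Prader-Willi region. A cluster of 9 at chr10:58221606-58239809 spanned Duxf3, of the Dux family of homeobox genes that is active in the early cleavage embryo, and one of 6 at chr5:14903353-15024445 held Speer genes, a rodent family expressed in testis. Copies in such arrays can be near-identical, and how the authors placed reads with several matches is not given in the sources used here, so the position of these peaks within an array is uncertain.

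The nearest gene was protein-coding for 41.6% of overexpression only regions outside the segment, a pseudogene for 26.0% and a lncRNA for 21.4%, against 82.8%, 3.34% and 10.9% of addback only regions. Only 2 coding genes were overexpression only there, Gm10354 on chromosome 5, with a −log10 p of 4.48 and 4.94, and Gm52446 on the X chromosome, with 4.76 and 4.76. Inside the segment 42 genes were, led by Gnb3, a G protein subunit, with 6.40 and 9.30, and Usp18, a protease that removes ISG15, with 6.02 and 8.01. Clec12a, a myeloid lectin, Kap, a kidney androgen-regulated protein, and the complement genes C1ra and C1rb followed, at 4.70 to 8.39. The overexpression peaks of Gnb3 are also those of its neighbour P3h3, which was found in both backgrounds. None of the 44 genes had a peak of −log10 q of at least 5 in both overexpression libraries.

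The 55 regions found in all 4 libraries outside the segment included 3 clusters. The first, with 10 regions, is chrY:90754073-90806207 with Mid1-ps1 and Gm33272, and the second, with 7, is chrX:169974727-170021486 with Mid1 and Erdr1. Both lie at the distal ends of the sex chromosomes near the pseudoautosomal region, where X and Y share sequence, so reads may be placed on either. At Erdr1 the region chrX:170008340-170021486 had a −log10 p of 40.5 and 25.1 in addback and 8.35 and 12.7 in overexpression. At Mid1, chrX:169981620-169988277, the values were 25.5 and 24.8 against 12.6 and 19.4. The largest Y region, chrY:90783136-90797210 near Gm33272, had 23.8 and 25.4 against 11.2 and 14.7.

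The third cluster is chr1:171063710-171082399, with 4 regions, where 15 tRNA genes in repeated units stand next to Fcgr3, an Fc receptor. The region chr1:171077575-171082399 had a −log10 p of 15.9 and 14.2 in addback and 9.13 and 9.36 in overexpression. The one over the end of Fcgr3, chr1:171063710-171066331, had 15.1 and 12.7 against 7.80 and 8.46. All 15 tRNA genes found in both backgrounds are in this array.

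Other coding genes found in both outside the segment included LOC100504180, Zfp981, Gm13283 and Duxf3. Duxf3 had a −log10 p of 5.04 and 3.50 in addback and 13.7 and 9.12 in overexpression, and LOC100504180 of the same array had 7.16 and 4.61 against 8.08 and 9.02. Zfp981 and Gm13283 had between 2.98 and 6.90 in the 4 libraries. The Dux genes hold repeated sequence, so the placing of their reads is uncertain.

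In the segment 94 of 258 coding genes (36.4%) were found in both, 42 (16.3%) were overexpression only and 2, Grin2b and Ntf3, were addback only. Bms1, a ribosome assembly GTPase, was among the strongest addback genes of all, with a −log10 p of 103.3 and 101.8, and had 5.04 and 7.82 in overexpression. Eno2, neuronal enolase, had 47.2 and 38.0 against 5.4 and 8.31, Vamp1, a synaptic vesicle protein, 48.6 and 66.2 against 6.02 and 6.02, and Ccdc77 27.7 and 47.1 against 5.78 and 8.01. Phb2, a prohibitin, had 22.7 and 23.8 against 6.65 and 7.74, and P3h3, a collagen hydroxylase, 14 and 14.8 against 6.40 and 9.30. These 6 genes were named for their low mean rank, and values from different lists are not on a common scale. In overexpression 66.3% and 80.2% of all genes of the segment carried a gene-end peak, so most genes there that had an addback peak could be called both.

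The authors' deposited lists of peaks that passed their comparison of replicates by irreproducible discovery rate (IDR) differed in the same direction. The addback list held 530 peaks and the overexpression list 127, of which 31 and 34 lay in the segment. Outside the segment 81.8% of addback IDR peaks and 5.38% of overexpression IDR peaks were within 1 kb of a gene end. Of the 499 addback IDR peaks outside the segment, 479 had no peak in either overexpression library, while 30 of the 31 inside it had one. The lists shared 6 overexpression peaks with 5 addback peaks: 3 on the Y chromosome at Mid1-ps1 and Gm33272, which fall in 2 addback peaks, and 1 each at Fcgr3, at Erdr1 and at Bid. Bid, a proapoptotic BCL2 family gene, is the only one in the segment, at chr6:120916009-120917124, with a −log10 p of 8.10 and 14.5 in addback and 6.33 and 8.35 in overexpression. Each IDR list combines its replicates, so these counts carry no replicate error.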

How the data were processed

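Chromatin immunoprecipitation with an HA antibody was analysed as peak lists, 1 per library, for 4 SETα and 4 SETβ libraries. Per the submitters' processing notes the tools included Bowtie2, MACS2 and deepTools with genome build GRCm38/mm10, and no roles or versions are given in the sources used here. In each deposited list the score is the authors' value, 10 times the −log10 p, rounded down. The deposited fold is a linear ratio of a peak to its local background, and its −log10 p and −log10 q were likewise deposited by the authors. In the authors' deposited IDR lists the score is a scaled IDR. They were used to rank, filter and describe peaks within a list, and values printed side by side from different lists are not on a common scale.

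Peaks were ranked by −log10 p and then fold. Regions were merged from peaks sharing at least 1 bp, and a summit counted as near a gene when within 1 kb of either end, using RefSeq genes of GRCm38.p6 (44472 genes, 19232 protein-coding). Promoters were matched by gene identifier for 15495 of the 19232. Chromosomes 8 and 11 were not analysed here. Groups were taken from the labels and compared over libraries by exact two-sided permutation tests, with 6 arrangements. Intervals are Wilson 95%. The code that assigns region classes was run on simulated lists as long as the real ones and returned 700 of 700 planted regions. The planted regions lay apart from each other and from all random peaks. Full recovery was therefore fixed in advance and says nothing about classes where peaks are dense. Python 3.11.15, numpy 2.4.6, pandas 2.3.3, scipy 1.17.1 and matplotlib 3.10.9 were used.

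The members, gene lists and motifs were chosen with earlier results of these data known. The translation factor list was trimmed of kinases and methyltransferases, and histone genes were also matched by synonym, after the files were seen. Named genes are the 12 addback only genes of lowest mean rank outside the segment, the 8 leading regions and genes of the other classes, 6 genes of the segment per class, all chaperones, and up to 4 genes per class of each other list; 1 gene found in both is not reported here. Alternatives were the segment, the number and ranking of peaks, a −log10 q of at least 5, windows, merging distance, protein-coding genes only, IDR lists, the replicate block and leaving out each replicate.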

Additional observations from a re-analysis of the deposited data

How the results depend on the processing

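Of 139 recomputed values for 12 results, 1 reversed and 49 moved, all of these overlaps that changed by over 1 SD or counts that changed by more than the limit for calling them equal. The other 89 were counts and overlaps that moved less, or differences judged by direction alone, several of which changed in size. The log2 difference in number of peaks was 1.62 as reported, 3.13 without the segment and 4.07 at the strict threshold, and that in gene bodies -8.84 points without the segment and -5.40 at the strict threshold (exact permutation test, p = 0.667). Alternatives that left out the segment together with another change were chosen after seeing the data. The reversed value was the share of summits in gene bodies, which was -22.3 points as reported and 4.43 points over all peaks without the segment, against -10.4 over all peaks with it. The shares at gene ends and outside genes kept their direction in every alternative run, from 30.8 to 63.9 points and from -55.1 to -20.4 points. The excess of overlap between replicates over that across backgrounds was 36.6 points as reported, 54.6 for the strongest 500 peaks, 29.6 for all peaks, 48.6 above the strict threshold, 24.8 for all peaks without the segment and 31.8 when 50% of both peaks had to overlap. The cause of these moves was not tested.

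Counts of regions and genes depended on the lists used, and the cause of each move was not tested. Without the segment, overexpression only fell to 485 regions and 2 genes and both to 55 regions and 6 genes. The strict threshold, a −log10 q of 5 or more, gave 543 addback only, 26 overexpression only and 2 shared regions, with 582, 0 and 0 genes, and without the segment 513, 24 and 2 regions with 555, 0 and 0 genes. With the strongest peaks only there were 594, 448 and 33 regions, with 631 addback only genes and 31 genes in both. Adding the removal of the segment gave 595, 449 and 12 regions with 637, 9 and 2 genes. The IDR lists gave 525, 121 and 5 regions with 555, 13 and 2 genes. A window of 250 bp left 29 overexpression only genes and 54 in both.

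Leaving out 1 library at a time gave 4526 to 21264 addback only regions, 1936 to 6503 overexpression only regions and 213 to 405 regions in both. For genes the ranges were 4510 to 6922, 57 to 114 and 103 to 183. The region counts rose when 1 library alone defined a class: addback only to 14959 without addback replicate 1 and 21264 without replicate 2, and overexpression only to 6503 without overexpression replicate 1 and 4100 without replicate 2. The samples share only a replicate number. With the replicate block the differences were the same as reported (53.5, -22.3 and -31.2 points, 0.13 in CpG ratio and 1.62 in log2 number of peaks), with p = 0.5, the smallest an exact permutation test of 2 pairs can give. No test of 2 against 2 libraries could pass 0.05. At the strict threshold no CpG ratio difference could be computed.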

Other observations

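All 8-letter words were counted, on both strands, in the promoters of the 466 genes of the strict addback group and of the other 14823 coding genes outside the chromosome 6 segment. The list was made after the values were seen and carries no test. The word with the largest difference was ACTTCCGG, found in 26.2% of strict promoters and 4.68% of the others. CACTTCCG was next, with 22.3% against 4.20%, followed by ACCGGAAG with 16.7% against 2.71%. These words overlap one another and the ETS word searched in the report, so they are not separate observations.

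Transfer RNA genes were also read in the SETβ libraries. The SETβ addback libraries had a peak at 38 and 80 of 349 tRNA genes, against 134 and 159 for SETα, and the SETβ lists were shorter, with 2518 and 9768 peaks. In overexpression the SETβ libraries had a peak at 18 and 37 tRNA genes and the SETα libraries at 15 and 17. These differences were not tested.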
